A study of Mus musculus with 12 samples.

Results

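The genes described here are 6 matrix metalloproteinases (Mmp8, Mmp9, Mmp12, Mmp13, Mmp14 and Mmp19) and 3 of their tissue inhibitors (Timp1, Timp2 and Timp3) in mouse macrophages treated with transforming growth factor β (TGFβ) and a TLR2 ligand. They were taken by gene symbol, as 9 of the 40847 rows of the count table, and the selection rule uses no value of the table. The members were, however, chosen with earlier results of these data known. The cells, fetal liver alveolar-like macrophages (FLAMs), are macrophages cultured from mouse fetal liver as a model of the lung's resident alveolar macrophage. Every culture contained recombinant mouse GM-CSF at 30 ng/ml. The untreated group received nothing further, the TGFβ group recombinant human TGFβ1 at 20 ng/ml, the Pam3 group the synthetic TLR2 agonist Pam3CSK4 (Pam3) at 25 ng/ml for 18 h, and the Pam3+TGFβ group both. Each of the 4 groups had 3 libraries of bulk RNA. The labels give neither the mouse strain nor whether libraries of a group came from separate fetuses or cultures, so p-values measure the spread between these libraries only.

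Matrix metalloproteinases are zinc-dependent enzymes that cut collagens, elastin and other matrix proteins, and most are secreted as inactive precursors. Tissue inhibitors (TIMPs) bind the active site and block it, and the balance of enzyme and inhibitor is known to set how much matrix is cut. In the lung, macrophages are a main source of the elastase MMP12, and TGFβ keeps alveolar macrophages in their resident state. Only transcripts were measured, and neither secretion nor enzyme activity.

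The libraries held 34036650 to 44374115 counts, and replicates differed by more than sampling noise in every pair. Libraries stood apart in AY036118 and LOC118568312, a pair of rows that took 3.81 to 6.73% of counts in 5 libraries (untreated replicate 3, TGFβ replicates 1 and 3, Pam3 replicates 2 and 3) and 0.107 to 1.28% in the other 7. All 10 macrophage markers were detected. Their summed level was 32176 to 36389 CPM (counts relative to the TMM-scaled library size) in the untreated libraries, 17280 to 18192 with TGFβ, 35089 to 36146 with Pam3 and 26062 to 26721 with both, so the marker sum was lowest in the TGFβ group, where Mmp12, Mmp13, Mmp14 and Timp1 were also lowest. The sum is mostly Lyz2 (29824 CPM untreated, 15248 with TGFβ), and single markers went both ways. Between untreated and TGFβ libraries, Itgam went from 1088 to 38.8 CPM, Adgre1 from 303 to 145 and Itgax from 335 to 168. Cd68 went from 858 to 549, Csf1r from 983 to 820 and Mertk from 223 to 222. Higher with TGFβ were Fcgr1 (81.1 to 91.3), Pparg (117 to 225) and Siglecf, a marker of alveolar macrophages (32.1 to 300). The 12 neutrophil markers summed to 14.0 to 16.2 CPM in the untreated libraries, 11.9 to 12.6 with TGFβ, 16.8 to 17.5 with Pam3 and 7.05 to 9.05 with both agents. Mmp8 and Mmp9 are also made by neutrophils. The granule genes Mpo (0 counts in all 12 libraries), Elane (0 to 4 counts) and Ctsg (0 to 4 counts) were at or near 0. S100a8, also a macrophage gene, had 95 to 637 counts and group means of 13.8, 3.07, 15.4 and 3.98 CPM in untreated, TGFβ, Pam3 and Pam3+TGFβ libraries, lower with TGFβ as Mmp8 was. Other neutrophil markers were higher with TGFβ than in untreated cells: Cxcr2 (6.74 against 0.0679 CPM), S100a9 (0.993 against 0.253), Ngp (0.623 against 0.346), Ltf (0.587 against 0.361) and Camp (0.174 against 0.00802). Dendritic cell markers, mostly Zbtb46, summed to 4.48 to 5.62 CPM in untreated and 1.23 to 1.94 in TGFβ libraries. Mast cell and basophil markers, mostly Cpa3, summed to 0.263 to 1.2 and 0 to 0.0741. Both sums, each resting mostly on a single gene, were lower with TGFβ like the 8 tested members. Erythroid markers summed to 1.77 to 2.69 and 3.48 to 4.03 CPM in the same groups, and fibroblast markers to at most 1.61 in any library. Hepatocyte markers, mostly Afp, summed to 5.8 to 5.87 CPM untreated and 8.41 to 10.2 with both agents. The part of these differences in the results below was not tested. In bulk RNA, fewer cells that express a gene and less RNA per cell cannot be told apart.

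Of the 9 members, 8 passed the filter on low counts and were tested. Timp3, which encodes the matrix-bound inhibitor, had 0 counts in all 12 libraries. A count of 0 allows up to 3 counts per library, or 0.0678 to 0.0953 CPM. On GRCm39, Timp3 lies at chr10:86136236-86185371 inside Syn3 on the other strand, which shares 21.3% of its exon bases and had 1 to 22 counts.

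Mmp13 (chr9:7272514-7283331, plus strand, 10 exons), Mmp12 (chr9:7344381-7369499, plus strand, 10 exons) and Mmp8 (chr9:7558457-7568487, plus strand, 10 exons) belong to a cluster of 10 Mmp genes over 427 kb. Mmp9 (13 exons) is at chr2:164780439-164797771, Mmp14 (10 exons) at chr14:54668878-54682821, Mmp19 (9 exons) at chr10:128626773-128636695 and Timp1 (6 exons) at chrX:20736316-20740976, all on the plus strand. Timp2 (5 exons) is at chr11:118191887-118246566 on the minus strand. Mmp19 shares 1084 exon bases (30.6%) with Tmem198b on the other strand, which had 180 to 324 counts against at least 3904 for Mmp19 in every library. Whether counting used strand is not given in the sources used here, so reads in that overlap are uncertain.

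Promoters of collagenase genes are a classic example of control by AP-1, the Fos and Jun family of transcription factors. The 250 bases upstream of each canonical start were searched on both strands for the AP-1 core TGANTCA, which reads the same on both strands. It was found in 4 of 9 members (Mmp9, Mmp12, Mmp13 and Mmp19) and in 6.17% of 21770 protein-coding promoters of the same length. The PU.1 core GAGGAAG was found upstream of Mmp8, Mmp14 and Timp2 and in 10.3% of promoters. The NF-kB consensus was found in none of the 9 and in 7.62% of promoters. A match describes letters only and no binding was measured. The last 100 bases before the start are shown for all 6 metalloproteinase genes, which lets the 4 genes with the AP-1 core (in capitals) be set against the 2 without it. They come from GRCm39, plus strand, at chr9:7272414-7272513 for Mmp13, chr9:7347274-7347373 for Mmp12, chr2:164790039-164790138 for Mmp9, chr10:128626673-128626772 for Mmp19, chr9:7558357-7558456 for Mmp8 and chr14:54668778-54668877 for Mmp14.
Mmp13: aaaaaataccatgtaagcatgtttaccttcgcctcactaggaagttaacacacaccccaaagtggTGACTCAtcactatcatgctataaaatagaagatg
Mmp12: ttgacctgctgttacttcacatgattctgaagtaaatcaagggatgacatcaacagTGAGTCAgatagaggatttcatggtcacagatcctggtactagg
Mmp9: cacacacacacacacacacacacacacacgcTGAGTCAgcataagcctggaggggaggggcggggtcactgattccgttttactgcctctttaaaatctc
Mmp19: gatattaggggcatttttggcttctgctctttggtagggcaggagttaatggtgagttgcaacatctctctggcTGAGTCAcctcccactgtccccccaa
Mmp8: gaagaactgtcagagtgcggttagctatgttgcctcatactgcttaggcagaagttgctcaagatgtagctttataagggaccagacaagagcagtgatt
Mmp14: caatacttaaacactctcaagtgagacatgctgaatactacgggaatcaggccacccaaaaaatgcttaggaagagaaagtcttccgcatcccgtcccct
Counted back from the transcription start, the core spans bases 35 to 29 in Mmp13, 44 to 38 in Mmp12, 69 to 63 in Mmp9 and 26 to 20 in Mmp19. These 4 genes did not share a response to Pam3, as given below: in cells without TGFβ, Mmp9 rose, Mmp13 and Mmp19 fell and Mmp12 was not called.

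In untreated cells Mmp12, the macrophage elastase, was by far the most abundant member. Per kb of its canonical transcript it reached 990 CPM, against 199 for Mmp8 (a collagenase), 47.3 for Mmp19, 26.0 for Timp2, 10.4 for Mmp13 (another collagenase), 3.94 for Mmp14, 2.91 for Timp1 and 0.149 for Mmp9 (a gelatinase). Mmp12 alone took 0.349 to 0.355% of all counts in the untreated libraries. Timp2, a soluble inhibitor that also takes part in activation of proMMP2 by MMP14, was the main inhibitor transcript, with 89.9% ± 1.59 (SD, n = 3) of the TIMP signal per length.

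**Figure D1:**
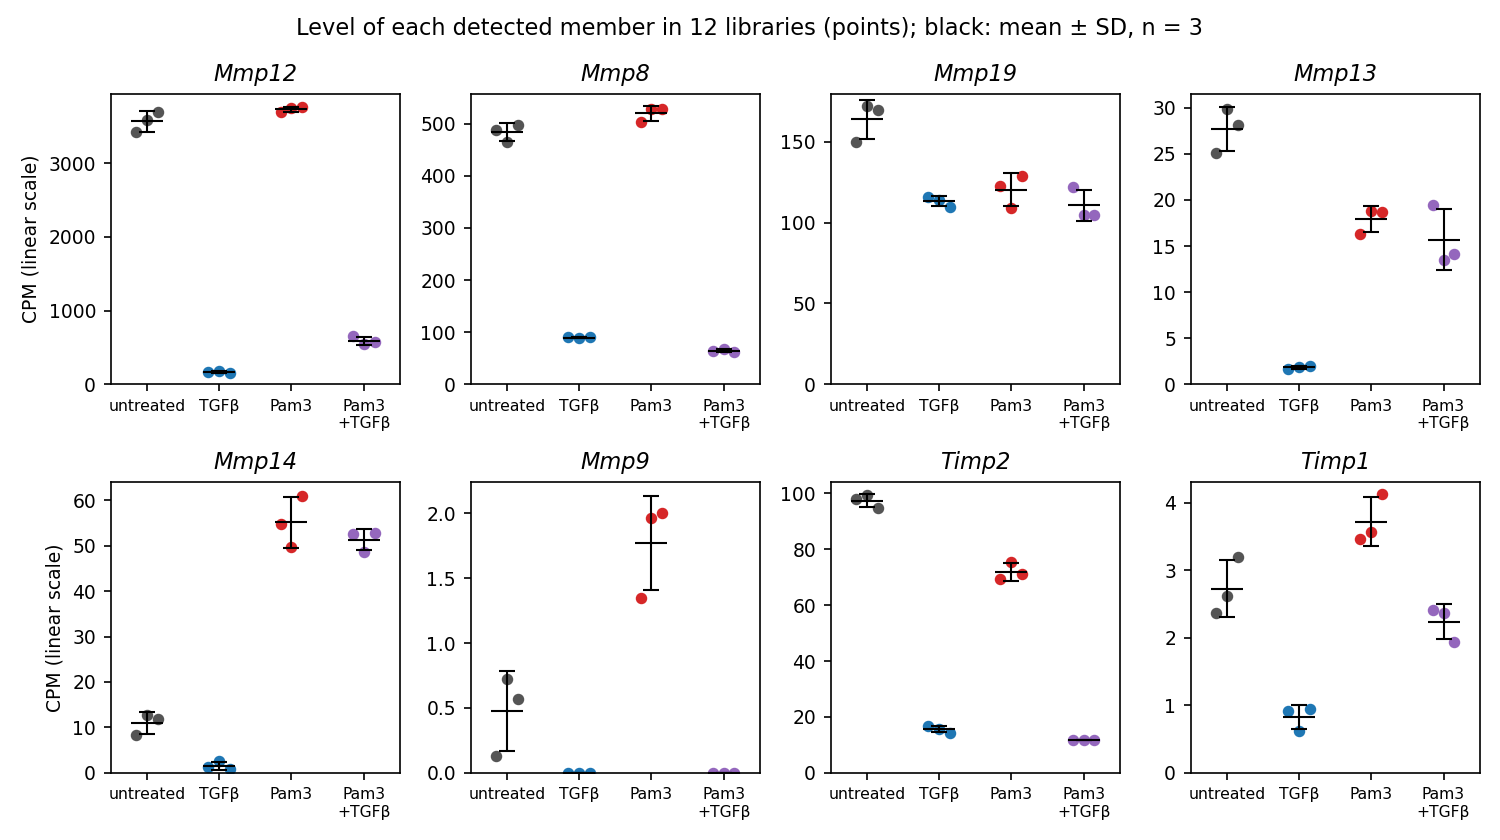
CPM (linear axis from 0, one scale per gene) of the 8 detected members in each of 12 libraries, with points for libraries and black marks for the mean ± SD of 3. The TGFβ libraries lie below the untreated libraries in every panel, while Mmp14 and Mmp13 with both agents lie at the Pam3 level and Mmp8, Timp2 and Mmp9 with both stay low.

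TGFβ alone lowered every detected member. All 8 tested members were called lower (edgeR quasi-likelihood test, Benjamini-Hochberg adjusted p under 0.05 over 14749 genes) and 0 higher, where 28.1% of all tested genes were called lower and 22.9% higher. Mmp9 was among the 8 only through the Pam3 libraries, which are outside this contrast. With untreated and TGFβ libraries compared alone it was not tested, and 7 members were called. The median log2 fold change of the members was -2.73 (-2.62 with Mmp9 at its bound) and that of all tested genes -0.01. Mmp12 was at 3425, 3584 and 3703 CPM in the untreated libraries and at 163, 185 and 154 CPM with TGFβ. Every TGFβ library was far below every untreated library, and the fall was 21.3-fold (log2 fold change -4.41, SE 0.0765, adjusted p = 7.92e-24). Mmp13, which cuts fibrillar collagen, went from 25.1, 29.9 and 28.1 CPM to 1.69, 1.88 and 1.99 CPM. That is a fall of 14.9-fold (log2 fold change -3.90, SE 0.142, adjusted p = 4.42e-17) with no overlap of the groups.

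The collagenase Mmp8 had 489, 465 and 498 CPM without and 89.9, 88.5 and 89.8 CPM with TGFβ, so that replicates of each group lay close together. The log2 fold change was -2.44 (SE 0.0456, adjusted p = 2.15e-23). Timp2 fell to a similar degree, from 97.9, 99.4 and 94.9 to 16.7, 15.6 and 14.4 CPM (log2 fold change -2.64, SE 0.0654, adjusted p = 4.06e-21). Mmp14, the membrane-anchored metalloproteinase that activates proMMP2, had 8.29, 12.8 and 11.8 CPM without and 1.27, 2.54 and 0.812 CPM with TGFβ. Its TGFβ libraries were spread the most in relative terms, with replicate 2 highest, and the log2 fold change was -2.81 (SE 0.316, adjusted p = 5.24e-05). It was -3.38 without TGFβ replicate 2, and -2.03 without the 5 libraries high in AY036118, where TGFβ replicate 2 is the only TGFβ library left.

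Mmp9 is the gene that TGFβ left without reads. It had 5, 30 and 20 counts in the untreated libraries and 0 in each TGFβ library. Against a floor of 3 counts in each library it was at least 6.04-fold lower (adjusted p = 3.74e-05). Mmp9 passed the filter only through the Pam3 libraries, and with untreated and TGFβ libraries compared alone it was not tested. Timp1, the secreted inhibitor known to be induced in inflammation, had 90, 109 and 112 counts without and 33, 25 and 36 counts with TGFβ. Its log2 fold change was -1.72 (SE 0.24, adjusted p = 1.19e-06). Mmp19 moved least: 150, 172 and 170 CPM against 116, 114 and 110 CPM, again without overlap (log2 fold change -0.53, SE 0.067, adjusted p = 6.52e-07).

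Pam3 in cells without TGFβ divided the members. Of the 8 tested, 2 were called higher (Mmp9 and Mmp14), 3 lower (Mmp13, Mmp19 and Timp2) and 3 were not called, against a background of 9.62% of all tested genes higher and 8.66% lower. The median log2 fold change was 0.08 for the members and 0.00 for all tested genes. Mmp14 rose from 8.29, 12.8 and 11.8 CPM to 54.7, 49.7 and 61.0 CPM. The lowest Pam3 library was well above the highest untreated library, and the log2 fold change was 2.33 (SE 0.241, adjusted p = 0.000127). Mmp9 rose from 5, 30 and 20 counts to 52, 74 and 63 counts (log2 fold change 1.89, SE 0.57, adjusted p = 0.0234). Only the Pam3 group had at least 10 counts of Mmp9 in every library, so the gene passed the filter through its highest group. Its groups did not overlap. The call was lost without untreated replicate 1 (log2 fold change 1.45, adjusted p = 0.098), Pam3 replicate 2 (1.81, 0.0961) or Pam3 replicate 3 (1.79, 0.0872), and without the 5 libraries high in AY036118 (1.66, 0.401).

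No other metalloproteinase was called higher. Mmp13 fell to 16.3, 18.8 and 18.7 CPM (log2 fold change -0.63, SE 0.112, adjusted p = 0.000201), and Mmp19 to 123, 109 and 129 CPM (log2 fold change -0.45, SE 0.0669, adjusted p = 3.41e-05). Timp2 fell to 69.2, 75.3 and 71.0 CPM (log2 fold change -0.44, SE 0.0597, adjusted p = 4.83e-06). In each of these genes all Pam3 libraries were below all untreated libraries. Mmp12 was at 3696, 3745 and 3760 CPM with Pam3, and its log2 fold change of 0.06 had a 95% confidence interval of -0.07 to 0.20 (adjusted p = 0.582). Mmp8 was at 504, 529 and 528 CPM, above the untreated libraries, with a log2 fold change of 0.10 (interval 0.02 to 0.19) that missed the threshold over all genes (adjusted p = 0.0988). Timp1 had 133, 134 and 130 counts, a log2 fold change of 0.45 with an interval of 0.00 to 0.89 (adjusted p = 0.169).

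In cells with TGFβ, Pam3 raised the transcripts of 3 enzymes and 1 inhibitor. The 4 called higher were Mmp12, Mmp13, Mmp14 and Timp1, while 2 were called lower (Mmp8 and Timp2) and 2 not (Mmp9 and Mmp19), against a background of 20.4% of all tested genes higher and 18.1% lower. With upper-quartile scaling, 41.5% of all calls in this contrast were higher in place of 53.0%. The members' median log2 fold change was 0.72, or 1.44 without Mmp9, which had 0 counts in both groups, and that of all tested genes -0.02. This contrast shares the TGFβ libraries with the TGFβ effect described above, so a low value in those libraries enters both. Mmp14 rose from 1.27, 2.54 and 0.812 CPM to 52.6, 48.6 and 52.7 CPM. The groups were far apart, and the change was 32.8-fold (log2 fold change 5.04, SE 0.303, adjusted p = 7.8e-07). It was 5.61 without TGFβ replicate 2 and 4.32 without the 5 libraries high in AY036118.

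Mmp13 rose from 1.69, 1.88 and 1.99 CPM to 19.5, 13.5 and 14.1 CPM, with replicate 1 of Pam3+TGFβ highest. The change was 8.43-fold (log2 fold change 3.08, SE 0.144, adjusted p = 9.48e-15). Mmp12 rose from 163, 185 and 154 CPM to 652, 546 and 580 CPM, which is 3.54-fold (log2 fold change 1.82, SE 0.0686, adjusted p = 5.93e-17). Timp1 rose from 33, 25 and 36 counts to 83, 88 and 86 counts (log2 fold change 1.44, SE 0.242, adjusted p = 2.72e-05). Groups did not overlap in any of these genes. Mmp8 instead fell further, from 89.9, 88.5 and 89.8 CPM to 64.3, 67.8 and 61.5 CPM (log2 fold change -0.47, SE 0.0446, adjusted p = 3.14e-09), and Timp2 to 11.9, 11.8 and 11.8 CPM (log2 fold change -0.39, SE 0.0679, adjusted p = 3.68e-05). Mmp9 had 0 counts in all 3 Pam3+TGFβ libraries, as in the TGFβ libraries. Mmp19 was at 122, 105 and 105 CPM, a log2 fold change of -0.04 with an interval of -0.18 to 0.10 (adjusted p = 0.706).

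The interaction contrast tests whether the Pam3 response with TGFβ differed from that without it. It was positive for 5 members and negative for 1, where 10.3% of all tested genes were called positive and 5.67% negative. With upper-quartile scaling, 53.4% of all interaction calls were positive in place of 64.5%. Mmp13 differed most, at 3.70 on the log2 scale (SE 0.183, adjusted p = 5.15e-13), since Pam3 lowered it without TGFβ and raised it with TGFβ. Mmp14 differed by 2.71 (SE 0.39, adjusted p = 0.00124), with Pam3 raising it in both settings. That difference was 3.28 without TGFβ replicate 2 and 1.95 without the 5 libraries high in AY036118. Mmp12 differed by 1.76 (SE 0.0947, adjusted p = 1.11e-12).

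The smaller interactions were those of Mmp8, Timp1 and Mmp19. Mmp8 was the negative case, at -0.57 (SE 0.0619, adjusted p = 1.24e-07). Mmp19 was at 0.41 (SE 0.0948, adjusted p = 0.00385), a call lost without the 5 libraries high in AY036118 (0.32, adjusted p = 0.262). Timp1 was at 0.99 (SE 0.323, adjusted p = 0.0357), and this call was lost in 7 of 12 fits that each left out 1 library (values 0.80 to 1.05, adjusted p 0.0509 to 0.132), with no filter on low counts (1.00, 0.0514) and without the 5 libraries (1.36, 0.152). For Timp2 the responses differed by 0.04 with an interval of -0.14 to 0.23 (adjusted p = 0.818). For Mmp9 no value is given, since both groups with TGFβ had 0 counts.

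**Figure D2:**
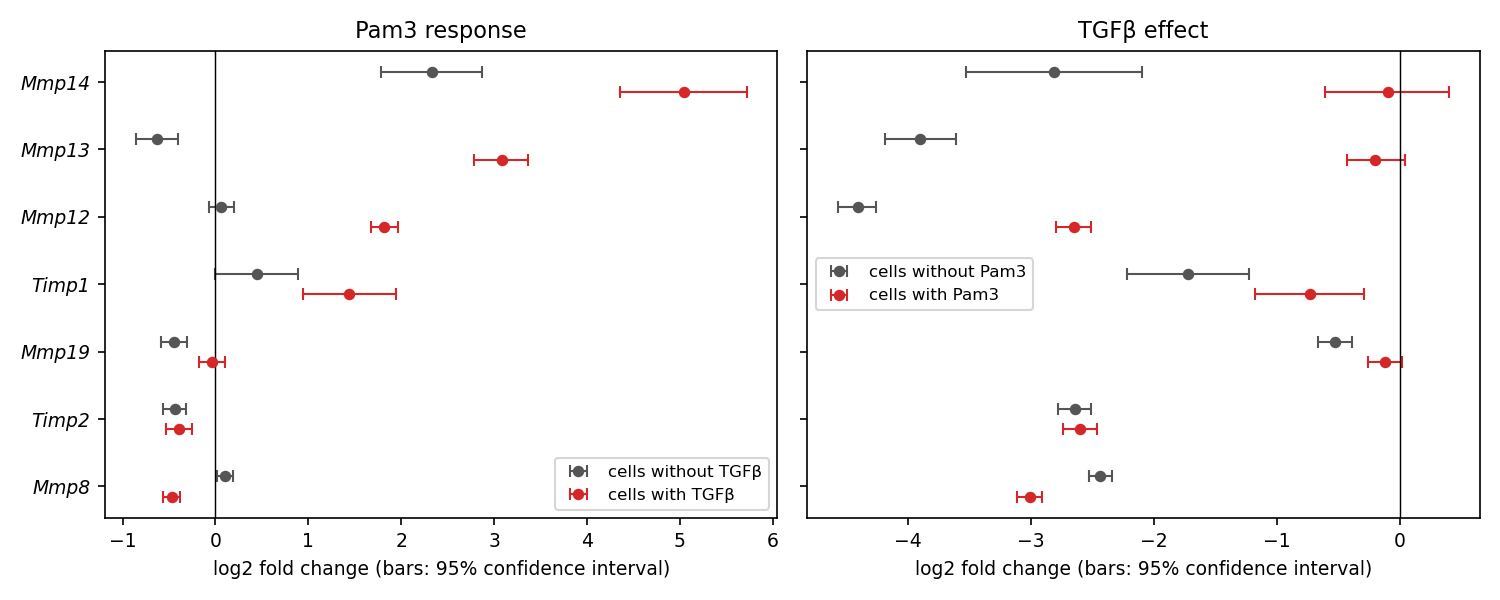
Log2 fold change with its 95% confidence interval for 7 members (Mmp9 is left out, with 0 counts in both groups with TGFβ). The left panel has the Pam3 response in cells without and with TGFβ, and the right panel the TGFβ effect in cells without and with Pam3. The intervals of Mmp14, Mmp13, Mmp12, Mmp8, Mmp19 and Timp1 are apart between settings in both panels, narrowly for Timp1, and those of Timp2 overlap.

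With Pam3 present, the TGFβ effect was called for 5 members, all lower (Mmp8, Mmp9, Mmp12, Timp1 and Timp2), and 0 higher, where 23.8% of all tested genes were called lower and 21.5% higher. The median log2 fold change was -1.67 for the members and -0.00 for all tested genes. The comparison is between the Pam3 and Pam3+TGFβ libraries, whose values are given above. The log2 fold change was -3.01 for Mmp8 (SE 0.0469, adjusted p = 2.14e-24), -2.65 for Mmp12 (SE 0.0706, adjusted p = 3.38e-20) and -2.60 for Timp2 (SE 0.0665, adjusted p = 1.08e-20). Mmp9, with 52, 74 and 63 counts against 0 in every library, was at least 22.6-fold lower (adjusted p = 5.31e-07). It passed the filter only through the Pam3 libraries of this comparison. Timp1 also fell (log2 fold change -0.73, SE 0.217, adjusted p = 0.00722), a call lost without the 5 libraries high in AY036118 (-0.62, adjusted p = 0.127).

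Mmp14 and Mmp13, the members with the largest interactions, were not called here. Mmp14 had a log2 fold change of -0.10 with an interval of -0.61 to 0.40 (adjusted p = 0.741), and its groups overlapped. Mmp13 had -0.20 with an interval of -0.43 to 0.04 (adjusted p = 0.169). Without Pam3+TGFβ replicate 1, its highest library, the value was -0.38 and was called (adjusted p = 0.00462). Mmp19 had -0.12 (interval -0.26 to 0.02, adjusted p = 0.151), and was called without Pam3 replicate 2 (-0.18, adjusted p = 0.0422) or Pam3+TGFβ replicate 1 (-0.20, adjusted p = 0.0217).

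The members therefore followed several orders of level over the 4 groups, where the further contrasts of both agents against untreated and of Pam3 against TGFβ called 52.1% and 54.0% of all tested genes. For Timp2 each neighbouring pair in the order was called, from untreated through Pam3 and TGFβ down to both. Mmp8 ran from Pam3 and untreated, which were not called apart, down to TGFβ and then both. Mmp12 had the same top pair, but both agents together stood above TGFβ alone. Mmp14 was highest in the Pam3 and Pam3+TGFβ groups, which were not called apart, and the Pam3+TGFβ level was above the untreated level (log2 fold change 2.22, adjusted p = 3.71e-05). Mmp13 was highest in untreated cells, then in the Pam3 and Pam3+TGFβ groups, which were not called apart, and lowest with TGFβ. For Timp1, Pam3 and untreated were not called apart, nor were untreated and Pam3+TGFβ (adjusted p = 0.289). Mmp19 was highest in untreated cells, and its neighbours among the other 3 groups were not called apart.

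Because the members moved by different amounts, the make-up of the metalloproteinase transcripts differed between groups. Per length, Mmp12 made up 79.1% ± 0.386 (SD, n = 3) of the signal of the 6 Mmp genes in untreated cells, 39.5% ± 2.07 in the TGFβ group, 78.9% ± 0.321 in the Pam3 group and 66.5% ± 1.07 in the Pam3+TGFβ group. Mmp19 made up 3.78% ± 0.183, 28.0% ± 0.861, 2.65% ± 0.22 and 12.9% ± 0.268 in the same order, so its share was highest with TGFβ although its level was lower there than in untreated cells. Mmp14 made up 0.314% ± 0.0622 in untreated cells and 7.46% ± 0.417 with both agents. Mmp8 made up 16.0% ± 0.69, 31.5% ± 1.55, 16.3% ± 0.271 and 10.8% ± 1.12. These shares depend on the gene length used. With the length of all exons, the TGFβ group had 24.9% Mmp12, 39.7% Mmp8 and 34.5% Mmp19, so that Mmp12 was no longer the largest, and the untreated group had 65.7% Mmp12, 26.6% Mmp8 and 6.15% Mmp19.

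**Figure D3:**
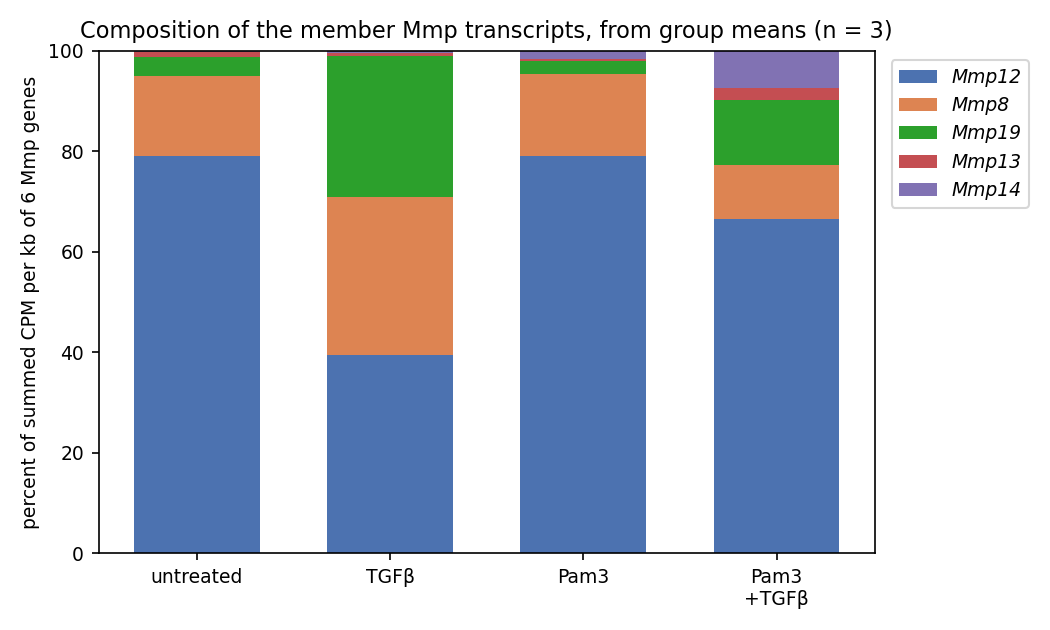
Share of each metalloproteinase gene in the summed group mean CPM per kb of the 6 Mmp genes, in percent (axis from 0 to 100; Mmp9 is too low to see). Mmp12 is at 79.1% in untreated cells and 39.5% with TGFβ, where Mmp8 and Mmp19 take most of the rest; with all-exon lengths the TGFβ shares are 24.9% Mmp12, 39.7% Mmp8 and 34.5% Mmp19.

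Enzyme and inhibitor transcripts were also set against each other. The ratio of Mmp12 to Timp2 per length was 36.4, 37.5 and 40.5 in the untreated libraries, 10.2, 12.3 and 11.1 with TGFβ, 55.5, 51.6 and 55.0 with Pam3 and 57.0, 48.0 and 50.9 with both. The TGFβ libraries were lowest, and the libraries with Pam3 and with both overlapped. With the length of all exons in place of the canonical transcript the group means were 22.6, 6.63, 32.1 and 30.8, since another length multiplies this ratio by the same factor in every group. Summed over the 6 Mmp and the detected TIMP genes, the ratio was 43.3 ± 1.58 for untreated, 23.3 ± 1.91 for TGFβ, 56.7 ± 1.73 for Pam3 and 44.6 ± 3.18 for Pam3+TGFβ libraries (SD, n = 3). With all-exon lengths these means were 32.4, 23.8, 43.4 and 40.5, so the difference between untreated and TGFβ was smaller and that between untreated and Pam3+TGFβ larger. Of 8 such comparisons, 7 did not overlap and gave p = 0.1 (canonical lengths) in a two-sided exact permutation test, the smallest that 3 against 3 libraries allow, and 0.114 after adjustment over the 8. The exception was Mmp12 to Timp2 between Pam3 and Pam3+TGFβ (difference -0.06 on the log2 scale, exact p = 0.6).

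The 3 members on chromosome 9 could be set beside their neighbours. Of the 10 genes of the cluster, 4 were tested (Mmp13, Mmp12, Mmp8 and Mmp27), and the other 6 had 10 counts or fewer in every library, with Mmp3, Mmp20 and Mmp7 at 0 throughout. Mmp27, which is no member, adjoins Mmp8 and had at most 23 counts. It fell with TGFβ (log2 fold change -2.83, adjusted p = 0.00146 without Pam3, and -2.39, adjusted p = 0.00495 with Pam3). Neither was called without the 5 libraries high in AY036118 (-2.11, adjusted p = 0.222, and -2.62, adjusted p = 0.0539). Mmp27 passed the filter only through the groups without TGFβ, with 12 to 23 counts untreated against 2 to 4 with TGFβ. Its level without TGFβ thus decided whether it was tested. With that limit, the 4 tested genes of the cluster were lower with TGFβ alone, as were 28.1% of all tested genes. They differed in what Pam3 did in the presence of TGFβ: Mmp13 and Mmp12 rose, Mmp8 fell, and Mmp27 had a log2 fold change of 0.43 (adjusted p = 0.726).

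**Figure D4:**
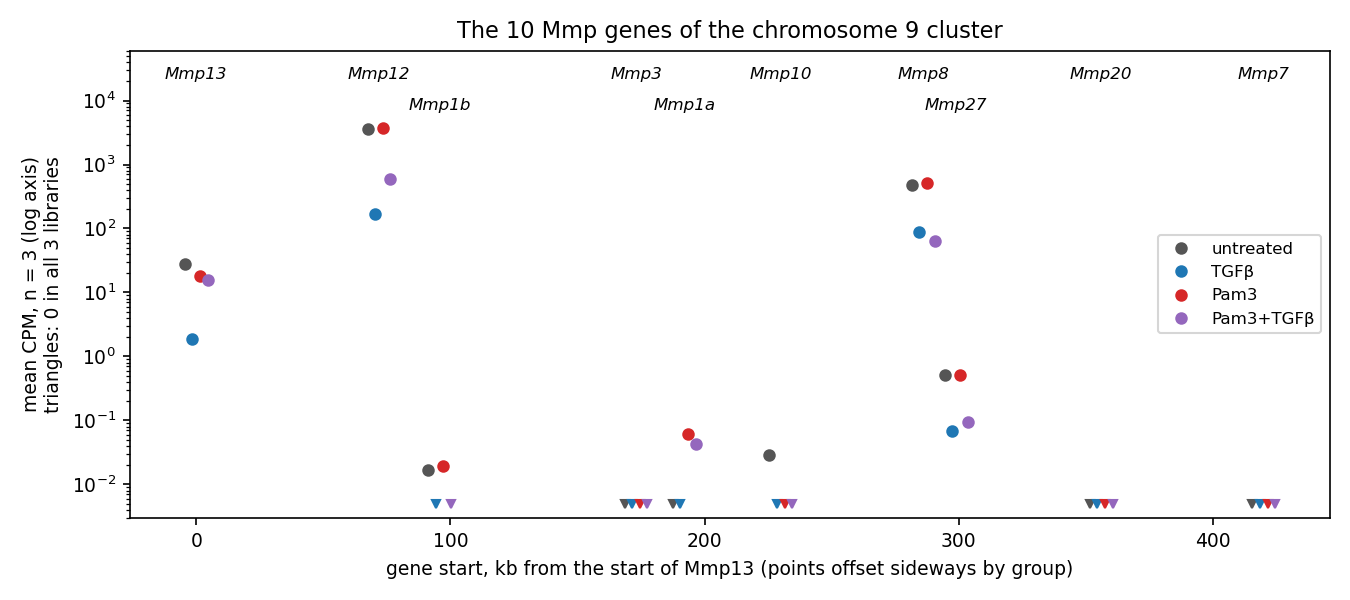
Mean CPM (log axis, n = 3) of the 10 Mmp genes of the chromosome 9 cluster by the distance of each gene's start from that of Mmp13 in kb, with groups by colour and triangles where all 3 libraries had 0 counts. Detected genes at 0 kb, 71.9 kb, 286 kb and 299 kb stand among genes with few or no counts.

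Other genes of the pathway were taken from 4 lists, whose counts stand beside the background shares of all tested genes given above: 28.1% lower and 22.9% higher for TGFβ alone, 23.8% and 21.5% for TGFβ with Pam3, 8.66% and 9.62% for Pam3 alone, and 18.1% and 20.4% for Pam3 with TGFβ. The medians of all tested genes lay between -0.02 and 0.00. Of 18 other Mmp and Timp genes 7 were tested, and 4 had no count in any library. TGFβ alone raised 1 and lowered 3, with a median of -1.05. The gene called higher was Mmp17, a membrane-anchored enzyme, with 1 to 3 counts per library untreated and 8 to 11 with TGFβ (log2 fold change 2.39, adjusted p = 0.015). It reached 10 counts only in libraries with TGFβ, so it passed the filter through groups where it is high. The call of Mmp17 was lost without untreated replicate 2 (2.10, adjusted p = 0.074) or 3 (2.19, 0.063) and with no filter on low counts (2.39, 0.0636). It was also lost without the 5 libraries high in AY036118 (2.38). The value was 3.09 without untreated replicate 1. The genes called lower were Mmp27, Mmp2 and Mmp28, of which Mmp27 and Mmp28 passed the filter only through groups without TGFβ. Mmp2, the gelatinase that MMP14 activates, went from 3.38 ± 0.579 to 1.63 ± 0.407 CPM (SD, n = 3) with TGFβ (log2 fold change -1.05, adjusted p = 9.81e-05). It rose with Pam3 in TGFβ-treated cells to 3.64 ± 0.0746 CPM (log2 fold change 1.16, adjusted p = 4.31e-05), the direction of Mmp14. Mmp28 had 21 to 42 counts untreated and 0 in each TGFβ library, at least 9.98-fold lower (adjusted p = 1.21e-05). In Pam3-treated cells TGFβ lowered 2 of the 7, Mmp27 and Mmp28, and raised 0 (median -0.33). For Mmp28 that call was lost without Pam3 replicate 1 (adjusted p = 0.142) or Pam3+TGFβ replicate 2 (0.0509). Pam3 alone called 0 of the 7 in either direction, and Pam3 with TGFβ raised 2 (Mmp2 and Mmp28) and lowered 0. Mmp28 had only 1 to 6 counts per library with both agents, at least 1.24-fold above the floor. That call was lost without Pam3+TGFβ replicate 1 (adjusted p = 0.0648), where the bound was 0.737.

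The list of genes that activate, bind or clear metalloproteinases had 12 of 18 tested. TGFβ alone raised 2 and lowered 6 (median -0.11), against 22.9% and 28.1% of all tested genes, and with Pam3 it raised 3 and lowered 4 (median -0.01), against 21.5% and 23.8%. Plau, the urokinase that turns plasminogen into plasmin, fell (log2 fold change -1.41, adjusted p = 1.54e-15), as did its receptor Plaur (-1.55, adjusted p = 5.83e-18). Serpinb2, an inhibitor of plasminogen activators, fell from 164 to 313 counts per library to 0 to 2 counts (adjusted p = 1.36e-06). Lcn2, which binds MMP9 protein, rose with Pam3 from 0.14 ± 0.176 to 7.4 ± 0.397 CPM without TGFβ (log2 fold change 5.77, adjusted p = 1.07e-09) and from 0.274 ± 0.148 to 3.72 ± 0.605 CPM with TGFβ (3.73, adjusted p = 4.46e-08). The value without TGFβ was 7.49 when untreated replicate 3, with the most of its few untreated counts, was left out, and 7.42 without the 5 libraries high in AY036118, where the value with TGFβ was 3.05. Pam3 raised 3 and lowered 3 of the 12 without TGFβ (9.62% and 8.66% of all tested genes), and raised 6 and lowered 1 with it (20.4% and 18.1%). Plaur was among those it raised with TGFβ (1.13, adjusted p = 5.68e-15).

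Of 18 ADAM and ADAMTS genes, related metalloproteinases that shed membrane proteins or cut proteoglycans, 11 were tested. TGFβ alone raised 6 and lowered 5 (median 0.21), so all 11 were called and in both directions, where 22.9% of all tested genes were higher and 28.1% lower. With Pam3 present it raised 2 and lowered 6 (median -0.18). Adam8, a leukocyte sheddase, fell from 176 ± 6.15 to 1.83 ± 0.682 CPM (SD, n = 3; log2 fold change -6.58, adjusted p = 2.88e-08), a larger log2 fold change than that of Mmp12. Adamts4, an aggrecan-cutting enzyme, rose with TGFβ at low levels, from 3 to 7 counts to 31 to 34 counts per library (2.65, adjusted p = 0.000326). Only the groups with TGFβ had at least 10 counts of Adamts4 in every library, so it passed the filter through the groups where it is high. Adam33 rose with Pam3 in TGFβ-treated cells from 4.3 ± 0.62 to 12.5 ± 0.562 CPM (1.54, adjusted p = 2.5e-09). Pam3 alone raised 3 and lowered 1 of the 11, and with TGFβ it raised 4 and lowered 3, against 20.4% and 18.1% of all tested genes.

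Cathepsins and other matrix-degrading proteases with their inhibitors moved one way with TGFβ. Of 12 listed genes 9 were tested, and all 9 fell with TGFβ, both without Pam3 (median -1.31) and with it (median -0.83), where 28.1% and 23.8% of all tested genes were lower. Among them were Ctsk, the collagen-cutting cathepsin of osteoclasts (-1.68, adjusted p = 1.07e-16, without Pam3), and Ctsl (-1.37, adjusted p = 4.76e-18). The leukocyte elastase inhibitor Slpi (-1.57, adjusted p = 9.98e-12) and the heparan sulfate-cutting enzyme Hpse (-4.36, adjusted p = 5.65e-12) fell as well. Ctsb, named here after its value was seen, had -1.31 (adjusted p = 1.46e-16). Pam3 alone called 0 of the 9, and with TGFβ it raised 3 and lowered 1 (Hpse, -2.20, adjusted p = 0.00249, and -3.61 without Pam3+TGFβ replicate 1, which had most of its few counts there).

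**Figure D5:**
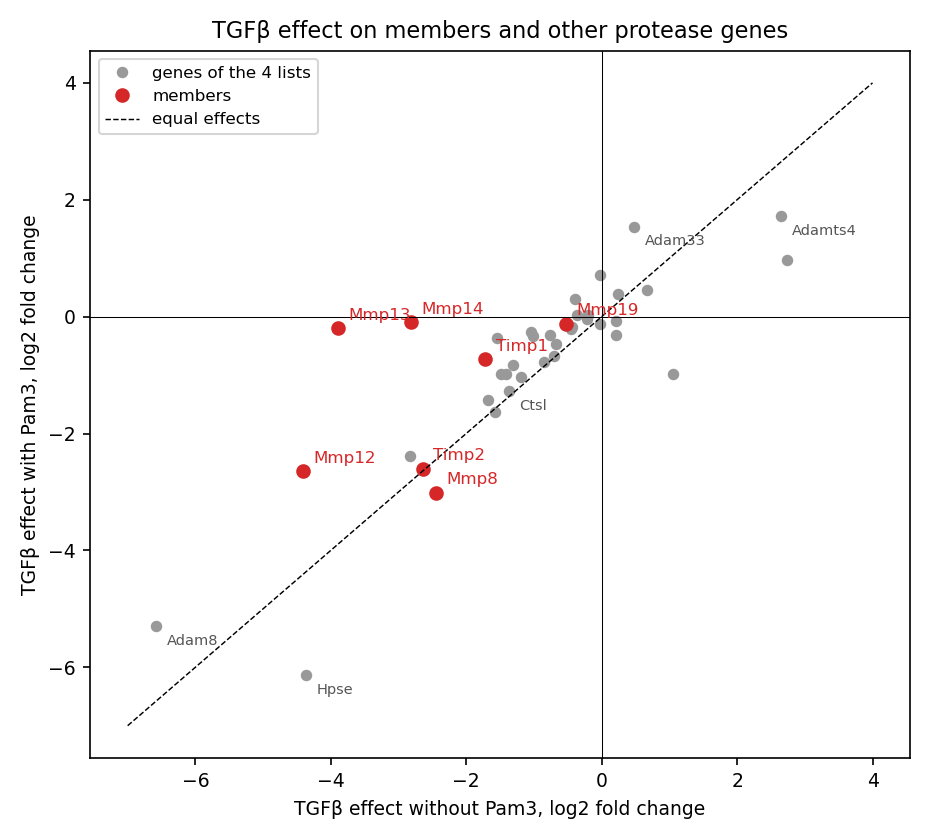
TGFβ effect in log2 fold change without Pam3 (x axis) against that with Pam3 (y axis) for 7 members and 33 tested genes of the 4 lists, with the dashed line at equal effects. The axes share no library, and genes with at most 3 counts in every library of a group are left out, as is 1 gene not reported here. Mmp13 and Mmp14 lie near 0 on the y axis and far below 0 on the x axis, and Timp2 lies on the line.

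The profile over 12 libraries was last compared between genes, as a description, by Pearson's r of log2 CPM. These points share libraries and 4 group means, so any gene with the same order of groups scores high. Among members, Mmp8 and Timp2 were most alike (r = 0.99), Mmp13 and Timp1 reached 0.91 and Mmp12 and Timp1 0.90, while Mmp14 and Mmp19 were at -0.04. Among all tested genes, Timp2 was nearest to Psap (r = 0.9982), Lgmn (0.9981) and Cd93 (0.9981), the first being the precursor of the lysosomal saposins and the next a lysosomal protease. Mmp13 was nearest to Hbegf (0.9869), an EGF receptor ligand, Plaur (0.9841) and Pdgfb (0.9791). Mmp14 was nearest to Lpcat2 (0.9964), Ms4a6c (0.9949) and Prkcd (0.9941), and Mmp12 to Lilr4b (0.9975), Atp6v1a (0.9973) and Rgl1 (0.9972). Mmp8 was nearest to Rftn1 (0.9968) and also close to Slc45a4 (0.9966), and Timp1 to Gbgt1 (0.9771), Stx11 (0.9769) and Ier3 (0.9765). The nearest genes of Mmp9 (Galnt1, 0.9763) and Mmp19 (Selp, 0.9419) were less close, and Mmp9 had 0 counts in 6 of the 12 libraries.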

How the data were processed

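Polyadenylated RNA of 12 libraries was sequenced from a stranded mRNA kit, per the labels' protocols. Per the submitters' processing notes, the authors used FastQC 0.11.7, Bowtie2 2.4.1 on GRCm39 and featureCounts of Subread 2.0.0. The deposited values used are whole read counts per gene symbol, not normalized by the authors. Bowtie2 does not split reads over introns, so reads across exon junctions can be lost, which can lower genes with short exons. The annotation, strand setting and handling of multiply aligned reads are not given in the sources used here, and the stated read length and reagent kit disagree. A deposited normalized table was not used here.

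Groups come from the sample labels. From the counts, genes were kept with filterByExpr of edgeR 4.0.16 (minimum count 10), which left 14749 of 40847 rows (17090 rows had no count). Libraries were scaled by TMM, and the robust quasi-likelihood test was fitted in R 4.3.3 to all 12 libraries with 4 group means and 7 contrasts. Calls are at p under 0.05 after Benjamini-Hochberg adjustment over all tested genes. The SE is the size of the log2 fold change over the square root of F. CPM uses TMM-scaled library sizes. A fold against a group at 0 uses 3 counts in each library as floor, which covers counting error only. Positions, canonical lengths and promoters come from GENCODE M39 on GRCm39. The procedure was tested on simulated counts.

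The members, lists and tests were chosen with earlier results of these data known. All members are named, and from each list up to 4 called genes per contrast with a log2 fold change of at least 1, some of which are described, and the 3 genes nearest in profile to each member. Some genes that this rule picks are not reported here. Each result was recomputed with edgeR scaled by upper quartiles or by DESeq2-type size factors, with DESeq2 1.42.0, without the filter, with 10 counts required in every library, with a replicate block, on the libraries compared alone, and with each library left out. A covariate for the log2 share of AY036118 and LOC118568312, a fit without the 5 libraries high in them (over 3% of counts), and the length of all exons were added after seeing the data.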

Additional observations from a re-analysis of the deposited data

Results flagged for a closer look

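Genes were picked out where the Pam3 response with TGFβ differed from that without it in the interaction test of edgeR. Among members these were Mmp13 (3.70 on the log2 scale), Mmp14 (2.71), Mmp12 (1.76), Timp1 (0.99), Mmp19 (0.41) and Mmp8 (-0.57), each with its error and its limits given above. Among listed genes that are no members, only those whose difference reached 1 log2 unit either way are given. Adam8 differed by 1.29, Plaur by 1.19 and Adam33 by 1.06, while Lcn2 differed by -2.05 and Hpse by -1.77. Mmp28 had 1 to 6 counts per library with both agents and 0 in all TGFβ libraries. It differed at an adjusted p of 0.0344, with no size given for that reason. Of these, the call of Adam8 was lost in 10 of 12 fits that left out 1 library (values 1.00 to 1.47, adjusted p 0.0549 to 0.0824). That of Hpse was lost in 8 (-1.78 to -1.25, 0.0598 to 0.162) and that of Lcn2 in 8 (-2.08 to -1.51, 0.0554 to 0.198). With the AY036118 covariate, Adam8 (1.29, adjusted p = 0.0619) and Hpse (-1.84, 0.0513) were not called. Adam8 was also not called with no filter on low counts (1.30, 0.0633). Without the 5 libraries high in AY036118 neither was called, at 1.16 for Adam8 and -2.22 for Hpse, while Lcn2 was at -4.37. Without untreated replicate 3 the Lcn2 value was -3.76, and without Pam3+TGFβ replicate 1 the Hpse value was -3.18. Adam33 was at 0.55 and not called without the 5 libraries high in AY036118 (adjusted p = 0.341). The check for an outlying library within a group needs at least 4 libraries and was not run on these groups of 3.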

How the results depend on the processing

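Counts of called members stayed within 1.5 times the main count under every alternative run, and no named gene reversed its direction where it was called. Under DESeq2-type and upper-quartile scaling, DESeq2 and the AY036118 covariate, the 7 tested members other than Mmp9 kept every call, as they did with the libraries compared alone, a fit that gives no interaction. Mmp9 was not tested with at least 10 counts required in every library, nor for TGFβ without Pam3 when the libraries were compared alone, since its low counts did not pass those filters. Without the 5 libraries high in AY036118, 1 TGFβ and 1 Pam3 library are left, assumed to vary like the other groups, and fewer genes were called over all tested genes: 1173 in place of 2697 for Pam3 without TGFβ, 3370 in place of 5678 for Pam3 with TGFβ, 802 in place of 2352 for the interaction and 4673 in place of 7971 for Pam3 against TGFβ. The calls of single members lost there are given beside the results.

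Replicate numbers recur across groups, and whether samples of the same number belong together is not known. Deviations from the group means correlated between libraries of the same number from -0.174 to 0.3 (median 0.062, 18 pairs). Between libraries of different number they ran from -0.397 to 0.323 (median -0.058, 36 pairs). Deviations within a group are not independent of each other, so these values do not settle whether libraries were paired. With a replicate block the members called were 5, 6, 8, 5 and 6 for the 5 main contrasts, as without it, and over all tested genes 2751, 5714, 7562, 6736 and 2393. The block ended the interaction calls of Adam8 (1.29, adjusted p = 0.0762) and Hpse (-1.75, 0.0621), whose values without it were 1.29 and -1.77. Counts were low for Timp1 (25 to 134) and Mmp9 (up to 74), and in the TGFβ libraries for Mmp14 (31 to 103) and Mmp13 (61 to 76). This limits the statements made on them.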
